A study of Rattus norvegicus with 12 samples.

Results

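The adipocyte genes described here were *Adipoq*, *Retn*, *Lep*, *Plin1*, *Cfd*, *Cidec*, *Fabp4*, *Lpl*, *Lipe* and *Pparg*, measured in the cervix of 12 rats. They were chosen by name, as the probes whose gene name in the array files equals that of a member. This rule found 10 probes for 9 of the 10 genes, of 30367 probes in all. *Plin1* is listed there under the older name *Plin*, and was matched through its RefSeq synonym, which made 11 probes for 10 genes of 26612 gene names. The animals were adult female Sprague Dawley rats, either nonpregnant and in proestrus (NP) or pregnant and studied late after breeding (D21, the number being days postbreeding), usually 1 day ahead of birth. All 12 were perfused with saline, the cervix was trimmed of vaginal folds, adherent fat and uterine horns, and its cells were dispersed with collagenase. The cells of 3 NP and 3 D21 rats were frozen at that point and are called whole cervix, so that whole cervix is also a dispersed and filtered suspension. The cells of 3 other NP and 3 other D21 rats were frozen after macrophages (Mφs) bound by the ED1 antibody had been held back with magnetic beads, and are called depleted cervix. Only the depleted groups went through the antibody and bead steps, so that loss of Mφs and these steps cannot be told apart. No transgene or drug was used, and each array held the RNA of 1 rat.

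Adipocytes store triglyceride in a large lipid droplet and release it as fatty acids, and they secrete hormones into the blood. The nuclear receptor encoded by *Pparg* drives their differentiation together with members of the CCAAT enhancer binding protein family. *Lpl* encodes the lipase that frees fatty acids from circulating lipoproteins, *Fabp4* a carrier of fatty acids in the cytoplasm, *Lipe* the hormone-sensitive lipase, and *Plin1* and *Cidec* proteins of the droplet surface, the latter joining small droplets into large ones. *Adipoq*, *Lep* and *Retn* encode the hormones adiponectin, leptin and resistin, and *Cfd* encodes adipsin, the complement protease factor D. *Adipoq*, *Retn*, *Lep*, *Plin1*, *Cfd* and *Cidec* are close to adipocyte-restricted in rodents, although Mφs are also known to make *Cfd*. *Fabp4* and *Lpl* are also made by Mφs, *Fabp4* by capillary endothelium, and *Lpl* by muscle.

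The probes decide which part of a transcript was measured, and those of the droplet gene *Cidec*, of *Fabp4* and of *Lipe*, whose probes disagreed, are shown here in lower case, 5′ to 3′, as the array files give them. In the rn4 build the *Cidec* probe matches chr4:149309002-149314127 (minus strand) and the *Fabp4* probe chr2:93536175-93538589 (plus strand). Both matches span more genome than the 60 bases of a probe, 5126 and 2415 bases, so that these probes join exons across an intron. The *Lipe* probes match chr1:80667084-80667143, the brighter and the one used, and chr1:80672329-80672388, both on the minus strand. No gene annotation of rn4 was used here, so exon numbers are not given.
Cidec: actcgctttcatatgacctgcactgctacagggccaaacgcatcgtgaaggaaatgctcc
Fabp4: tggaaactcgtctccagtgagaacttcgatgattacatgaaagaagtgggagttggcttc
Lipe, probe used: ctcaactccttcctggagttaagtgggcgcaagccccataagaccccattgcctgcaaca
Lipe, other probe: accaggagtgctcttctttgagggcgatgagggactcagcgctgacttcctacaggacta

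*Retn* and *Cidec* were the members called lower in D21 than in NP whole cervix. Their promoter windows from RefSeq (GRCr8 build) follow, from 250 bases before the transcription start to 50 after it. The *Retn* window lies at chr12:6508524-6508823 (plus strand) and the *Cidec* window at chr4:148137066-148137365 (minus strand). The array files place the *Retn* probe on the minus strand of rn4, and the orientation of this region was not compared between the builds. Capitals mark matches, on either strand, to TTGCNNAA, the core bound by CCAAT enhancer binding proteins, and to AGGTCA, the half-site of nuclear receptors. The *Cidec* window held 1 match to TTGCNNAA, 209 bases before the start, and the *Retn* window held AGGTCA 169 and 7 bases before it.
Retn: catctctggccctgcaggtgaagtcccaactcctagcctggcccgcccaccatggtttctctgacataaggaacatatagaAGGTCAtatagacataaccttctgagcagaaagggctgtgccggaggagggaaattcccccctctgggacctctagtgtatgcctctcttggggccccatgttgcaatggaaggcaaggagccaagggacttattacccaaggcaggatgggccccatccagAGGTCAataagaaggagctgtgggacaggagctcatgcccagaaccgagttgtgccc
Cidec: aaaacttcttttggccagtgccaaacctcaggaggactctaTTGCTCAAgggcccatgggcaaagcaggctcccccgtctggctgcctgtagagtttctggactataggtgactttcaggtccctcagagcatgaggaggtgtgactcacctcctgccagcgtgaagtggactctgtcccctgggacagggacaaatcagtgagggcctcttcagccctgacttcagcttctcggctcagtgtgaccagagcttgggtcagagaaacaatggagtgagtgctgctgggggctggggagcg
Promoter windows were found for 7 members, 8 windows in all with both of *Pparg*. TTGCNNAA was present in 4 of the 8, those of *Cidec*, *Lep*, *Plin1* and *Pparg*, beside 10.6% of 33469 rat windows. AGGTCA was present in the *Retn* window alone, beside 16.2% of all. *Lep* and *Plin1*, which hold the core as *Cidec* does, had no measurable level in any rat (next paragraph).

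Each level is a log2 intensity from which that of the array's 75th percentile was subtracted, so that this percentile is 0, and levels of different probes cannot be ranked against each other. The scanner software rated 44.9% to 61.7% of probes as well above background, depending on the array, and no member probe was saturated. The 75th percentile ranged from 290 in depleted cervix of NP rat 7 and 309 in whole cervix of NP rat 8 to 1171 in depleted cervix of D21 rat 1, so dim genes have a higher detection limit in the first 2. The 12 arrays lay on 4 slides and were scanned on 3 days. All whole arrays were scanned on the same day, with depleted NP rat 7 and depleted D21 rat 4. Depleted NP rats 5 and 6 and depleted D21 rats 1 and 2 were scanned on the other days, on slides without a whole array. Whole against depleted cervix is thus in large part also a comparison of scan days and slides. Mφ markers as a list followed the labels of the depletion. The mean log2 level of 16 Mφ markers was between 0.59 and 1.25 in the 6 whole cervices and between -4.16 and -3.37 in the 6 depleted cervices. *Cd68* and *Cd14* were not called between whole and depleted cervix. Their differences were -0.145 and 0.26 at D21, and 0.54 and -0.23 in NP rats.

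**Figure D1:**
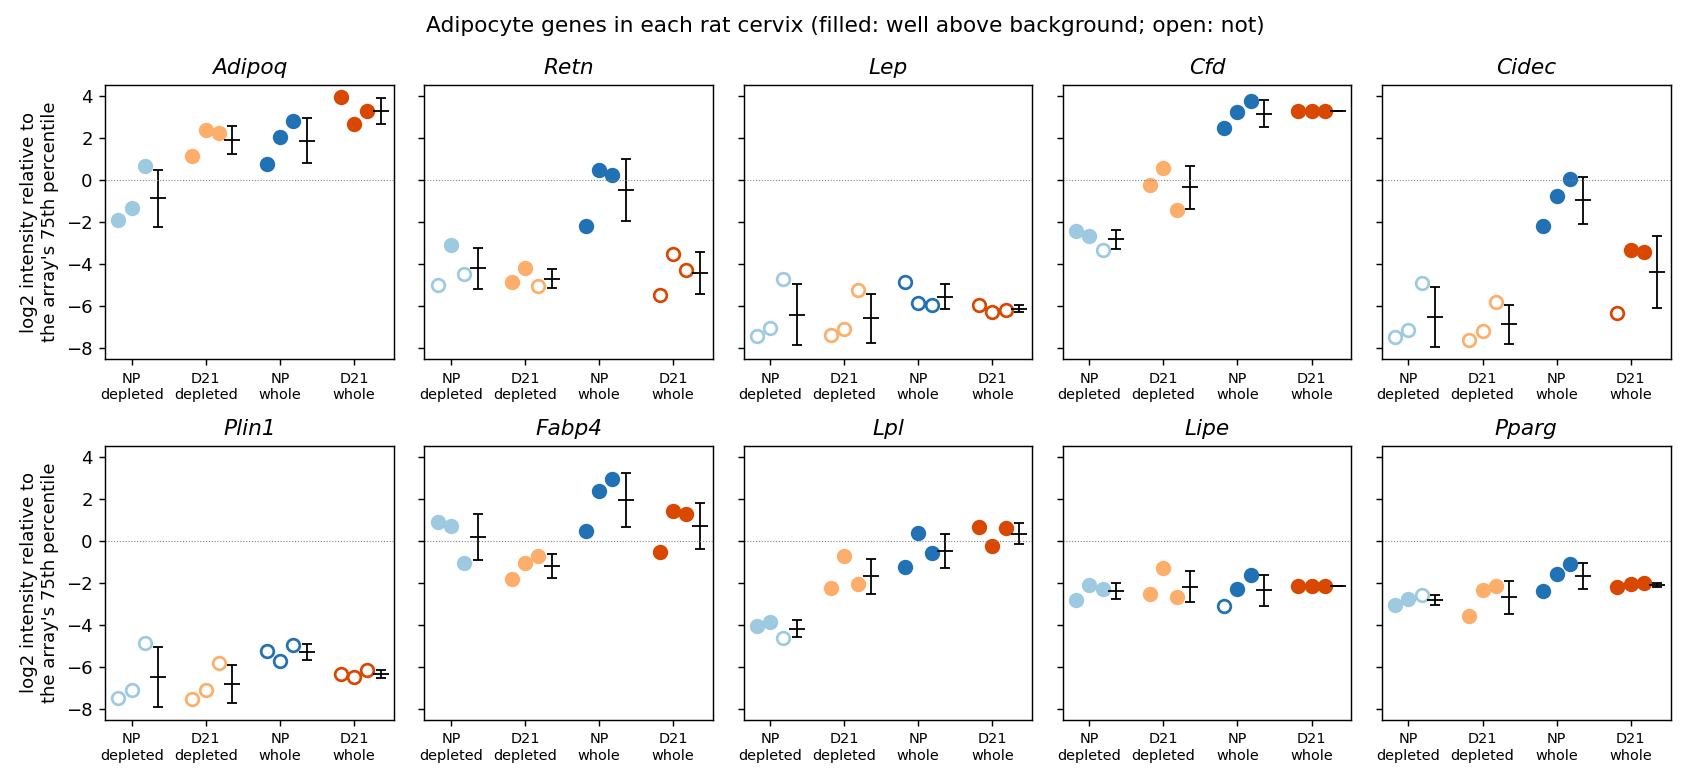
Log2 intensity minus that of the array's 75th percentile (y axis) of 10 adipocyte genes in each of 12 rats (1 point a rat, rats in order of number, x axis groups), with the mean and SD of each group of 3 in black. Filled points were well above background. *Lep* and *Plin1* have open points throughout, *Retn* and *Cidec* stand high in NP whole cervix, and *Adipoq* is lowest in NP depleted cervix.

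The name adipocyte was only partly borne out by these markers. *Lep* was not well above background on any of the 12 arrays, and neither was *Plin1*, the coat protein of the adipocyte droplet. Their signals lay between -7.43 and -4.72 and between -7.53 and -4.86, which is the range of noise on these arrays, and they were not tested. The other 8 members were well above background in all 3 rats of at least 1 group. *Adipoq* was well above background on all 12 arrays, *Fabp4* likewise, while *Cidec* was so in 5 rats, all of whole cervix, and *Retn* in 6. In NP whole cervix 4 of the 6 adipocyte-restricted genes were measurable in every rat. In D21 whole cervix, 2 or 3 of the 6 were measurable in a rat, and *Adipoq* and *Cfd* were measurable in all 3.

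The comparison of D21 with NP whole cervix sets late pregnancy against nonpregnant rats in proestrus, with no earlier day of pregnancy. *Retn* and *Cidec* were lower at D21, and none of the other 6 tested members was called. In whole cervix of NP rats 8, 9 and 10, *Retn* stood at -2.16, 0.50 and 0.22. In D21 rats 5, 6 and 7 it was not well above background, with signals of -5.47, -3.52 and -4.27, so that no D21 rat reached the lowest NP rat. The difference was -3.94 (SE 0.73, n = 3 in each group, limma, unadjusted p = 0.0002, adjusted p = 0.0136). With each D21 signal raised to its array's dimmest signal rated well above background, where that was higher, the means of *Retn* differed 11.3-fold. *Cidec*, the droplet fusion gene, stood at -2.17, -0.78 and 0.06 in NP whole cervix. In D21 whole cervix it was at -3.34 and -3.44 in rats 6 and 7 and not well above background, at -6.33, in rat 5. The groups did not overlap, and the difference was -3.41 (SE 0.93, unadjusted p = 0.00354), which passed the threshold of the study (unadjusted p below 0.01 and at least 2-fold) but not an adjusted p below 0.05 (0.0557). Left out in turn, NP rat 9, NP rat 10 or D21 rat 5 ended the call for *Cidec*, which left 1 member called. The size of its difference rests in part on the undetected signal of D21 rat 5, without which it was -2.43. With normexp background correction, *Retn* differed by -1.49 and *Cidec* by -1.17, and neither was called, as with the methods' t-test.

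The hormone and lipid uptake genes showed another order. *Adipoq* was at 0.74, 2.07 and 2.82 in NP whole cervix and at 3.93, 2.67 and 3.28 in D21 whole cervix, and the groups overlapped (difference 1.42, SE 0.69, adjusted p = 0.253). The D21 rat with the highest *Adipoq*, rat 5, was the one in which *Cidec* was not detected. *Cfd* was at 2.47, 3.25 and 3.79 in NP and at 3.29, 3.30 and 3.27 in D21 whole cervix (difference 0.12, SE 0.48). *Lpl* differed by 0.83 (SE 0.49), *Fabp4* by -1.22 (SE 0.74), *Pparg* by -0.41 (SE 0.40) and *Lipe* by 0.20 (SE 0.42), all with overlapping groups and adjusted p-values from 0.342 to 0.911 with *Cfd* included. In all, 2 of 8 tested members were called, both lower, beside 8.48% of 14056 genes tested called in either direction and 3.09% called lower. Both passed the filter on dim probes only through NP whole cervix, where they were high, so that their count and lack of overlap are descriptions. Of the 5 members well above background on all 6 arrays, 0 were called by limma, also at an unadjusted p below 0.05. The groups did not overlap for *Retn* and *Cidec*, and did not for 44.2% of all genes tested. The median difference was -0.15 over the 8 members and -0.08 over all genes. Within the slide that held NP rat 10 with all 3 D21 rats, the differences were -4.65 for *Retn* and -4.44 for *Cidec*. All 6 whole arrays were scanned on the same day. In bulk samples such as these, fewer cells of a type and less RNA per cell cannot be told apart.

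**Figure D2:**
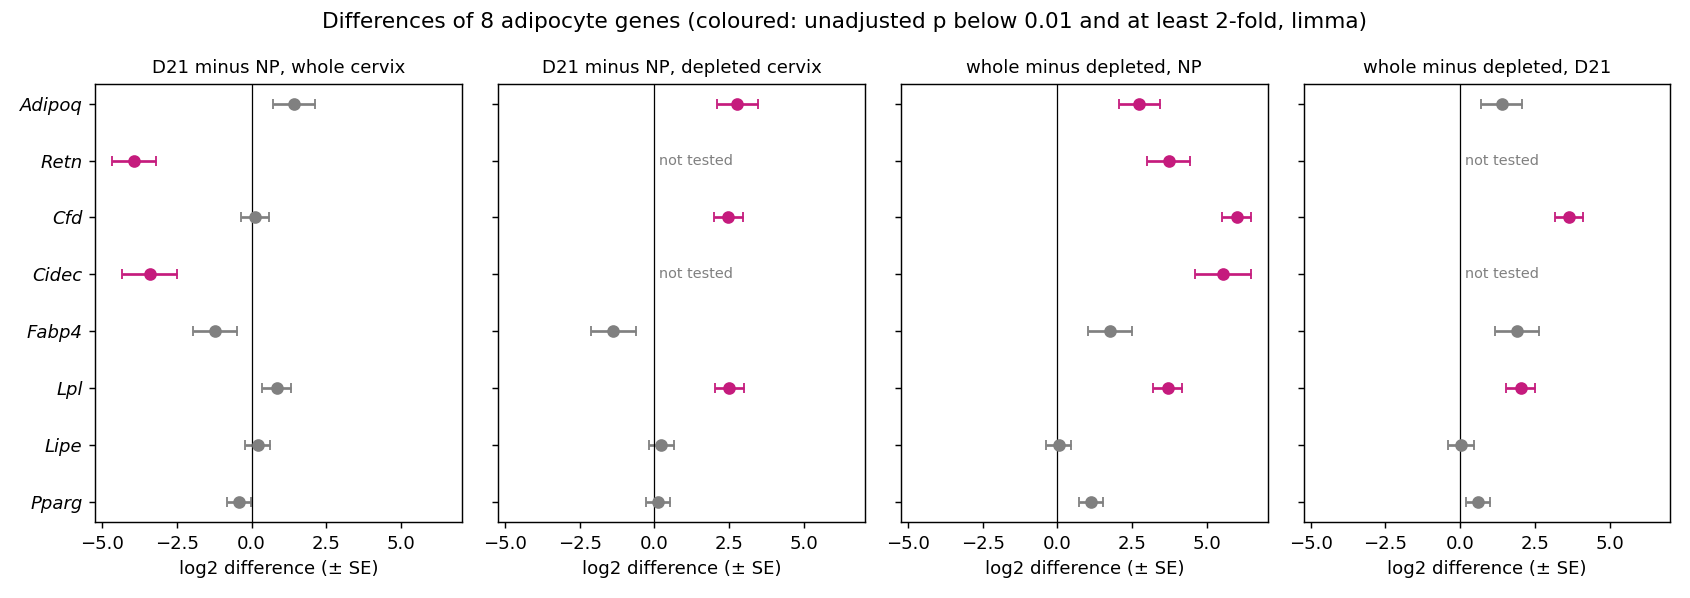
Log2 difference between groups with its SE (x axis) for the 8 members that could be tested (y axis), in 4 comparisons, with those called at the study's threshold coloured. The coloured points lie left of 0 for *Retn* and *Cidec* in D21 against NP whole cervix, and right of 0 in the other 3 panels.

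Whole and depleted cervix of NP rats differed in more of these genes than any other pair of groups compared. All 5 members called were higher in whole cervix, namely *Cfd*, *Cidec*, *Retn*, *Lpl* and *Adipoq*. *Cfd* was at -2.44 and -2.69 in depleted cervix of NP rats 5 and 6 and not well above background, at -3.35, in rat 7, far under the lowest whole cervix of 2.47. The difference was 5.99 (SE 0.48, 63.7-fold, adjusted p = 6.8e-06), with the undetected signal of rat 7 included. *Cidec* was not well above background in any depleted NP rat, with signals of -7.49, -7.16 and -4.88, and whole cervix exceeded their detection limit by at least 10.96-fold (adjusted p = 0.00098). *Retn* was measurable in depleted rat 6 alone, at -3.11, beside -5.01 and -4.49 in the other 2, and was higher by 3.72 in whole cervix (SE 0.73, adjusted p = 0.00266). *Lpl* was at -4.04 and -3.86 in depleted rats 5 and 6 and not well above background in rat 7 (-4.65), beside -1.26, 0.38 and -0.60 in whole cervix (difference 3.69, SE 0.49, adjusted p = 0.000216). *Adipoq* was well above background in all 3 depleted rats, at -1.92, -1.34 and 0.67. Its highest depleted rat nearly reached the lowest whole cervix (0.74), and the difference was 2.74 (SE 0.69, adjusted p = 0.0109).

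*Pparg* was higher by 1.12 (SE 0.40) in whole NP cervix with an adjusted p of 0.0486, but its unadjusted p of 0.0158 missed the study's threshold. *Fabp4* was at 0.89, 0.72 and -1.07 in depleted and at 0.48, 2.37 and 2.93 in whole NP cervix (difference 1.75, SE 0.74, adjusted p = 0.0915), and *Lipe* differed by 0.05 (SE 0.42). The 5 of 8 members called higher stand beside 13.6% of 13409 genes called higher and 24.3% called in either direction. *Retn*, *Cfd*, *Lpl*, *Cidec* and *Pparg* passed the filter only through whole cervix, where they were high. The count, the lack of overlap and the median given here are therefore descriptions. Of *Adipoq* and *Fabp4*, which were well above background on all 6 arrays, *Adipoq* was called. The groups did not overlap for 6 of 8 members and for 46.9% of all genes. The median difference was 3.22 over the members and -0.04 over all genes. The call for *Adipoq* ended with slide as a block (difference 1.43), with scan day as a block, with only the 6 arrays compared, and without NP depleted rat 5 or NP whole rat 10. Within the slide that held whole rats 8 and 9 and depleted rat 7, the difference was 0.74 for *Adipoq*, 3.65 for *Retn*, 3.41 for *Cidec*, 4.21 for *Lpl* and 6.21 for *Cfd*.

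In D21 rats, *Cfd* and *Lpl* were higher in whole than in depleted cervix. *Cfd* was at -0.23, 0.59 and -1.41 in depleted cervix of rats 1, 2 and 4, beside 3.27 to 3.30 in whole cervix (difference 3.64, SE 0.48, 12.4-fold, adjusted p = 0.000754). *Lpl* was at -2.24, -0.72 and -2.07 in depleted and at 0.67, -0.24 and 0.60 in whole cervix (difference 2.02, SE 0.49, 4.06-fold, adjusted p = 0.0177). The call for *Lpl* ended with normexp background correction (1.14) and with slide as a block (2.39). *Adipoq* was at 1.13, 2.37 and 2.23 in depleted D21 cervix, every rat under the lowest whole cervix of 2.67, and the difference of 1.39 (SE 0.69, adjusted p = 0.161) was not called. *Fabp4* was higher by 1.90 in whole cervix (SE 0.74, adjusted p = 0.0832) and not called, but passed the threshold without D21 whole rat 5, where it was lowest. *Cidec* was not well above background in any depleted D21 rat (-7.62, -7.17 and -5.81) nor in whole cervix of rat 5, whose signal lay within their range, and it was not tested. *Retn* could not be compared, as it was not well above background in any D21 whole cervix and in only 2 depleted ones. In all, 2 of 6 tested members were called, both higher, beside 10% of 14256 genes called higher, 7.72% called lower and 17.8% in either direction. The groups did not overlap for 4 of the 6 and for 44.4% of all genes, and the median difference was 1.64 over the members and -0.06 over all genes. No slide held both D21 groups, so that the fit with slide as a block compared them only through NP arrays and has little information on them. On the scan day that held all 3 whole arrays and depleted rat 4, the differences were 4.70 for *Cfd*, 2.42 for *Lpl* and 1.06 for *Adipoq*.

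The 2 *Lipe* probes did not give the same answer here. The probe used was at -2.53, -1.32 and -2.69 in depleted and -2.13, -2.16 and -2.17 in whole D21 cervix, a difference of 0.03 (SE 0.42). The other probe, which was dimmer, was higher in whole cervix by 1.11 (SE 0.33, unadjusted p = 0.00589, adjusted p = 0.035). Between D21 and NP whole cervix the differences were 0.20 for the probe used and 0.18 for the other, with adjusted p-values of 0.82 and 0.788.

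Between the depleted groups, *Adipoq*, *Cfd* and *Lpl* were higher at D21. *Adipoq* was 6.83-fold higher (difference 2.77, SE 0.69, adjusted p = 0.0459), *Cfd* 5.55-fold (2.47, SE 0.48, adjusted p = 0.0136) and *Lpl* 5.68-fold (2.51, SE 0.49, adjusted p = 0.0149). For each of the 3 genes the lowest D21 rat stood above the highest NP rat. *Fabp4* was lower at D21 by 1.37 (SE 0.74), with overlapping groups and an adjusted p of 0.298. *Pparg* differed by 0.11 (SE 0.39) and *Lipe* by 0.22 (SE 0.42). *Retn* and *Cidec* were too dim to be tested. The 3 of 6 members called, all higher, stand beside 5.44% of 13406 genes called higher and 7.5% in either direction, and the 3 with no overlap beside 17% of all genes. *Cfd*, *Lpl* and *Pparg* passed the filter only through the D21 rats, so that the count, the lack of overlap and the median are descriptions. Of the 3 members well above background on all 6 arrays *Adipoq* alone was called. The median difference was 1.35 over the members and 0.02 over all genes. The call for *Adipoq* ended without NP depleted rat 5. On the slide with 1 rat of each group the differences were 1.56, 1.94 and 2.57 for *Adipoq*, *Cfd* and *Lpl*, and on the slide with D21 rat 2 and NP rats 5 and 6 they were 4.00, 3.15 and 3.23.

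An interaction term tested if the gap from depleted to whole cervix was of another size at D21 than in NP rats. For *Cfd* the gap at D21 minus that in NP rats was -2.36 on the log2 scale (SE 0.68, unadjusted p = 0.00509, adjusted p = 0.0993), which passed the study's threshold and not an adjusted p below 0.05. The fitted value for *Retn* was -3.45 (unadjusted p = 0.00672, adjusted p = 0.112) and for *Cidec* -3.05 (adjusted p = 0.242), but both passed the filter through NP whole cervix alone, and their gap at D21 was between signals at or near background, so that the size of neither was measured. *Lpl* (-1.67, SE 0.70) and *Adipoq* (-1.36, SE 0.99) were negative and not called, with adjusted p-values of 0.229 and 0.479, and *Fabp4* was at 0.15 (SE 1.05). The 2 of 8 members called lower stand beside 5% of 14565 genes called lower, 2.44% called higher and 7.44% in either direction. Either call ended when 1 of several rats was left out, and without D21 whole rat 5, D21 whole rat 7, NP whole rat 9 or NP whole rat 10, among others, no member was called.

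Markers of other cell types moved with the same groups. Skeletal muscle markers (9 of 10 with a probe, 5 measurable) had a mean log2 level of 0.46 to 1.41 in NP whole cervix, the group where *Retn* and *Cidec* stood high, and of -1.60 to -1.26 in D21 whole cervix, and 4 of the 5 tested were lower at D21. In the same comparison 7 of 10 epithelial markers were higher at D21, with a list mean of 4.18 beside 2.99 in NP whole cervix, and 4 of 10 smooth muscle markers were lower, with a mean of 3.92 beside 4.76. Over all genes tested there, 5.39% were called higher and 3.09% lower. *Casq1*, a skeletal muscle marker called lower, passed the filter only through NP whole cervix, where it was high. The fast myosin genes *Myh1*, *Myh2* and *Myh4* were not well above background on any array. The part of these lists in the differences of *Retn* and *Cidec* was not tested. Fibroblast markers (10 of 10 measurable) had a mean of 4.20 to 4.64 in the 6 whole cervices, 2.69 to 3.41 in D21 depleted and -0.22 to 0.69 in NP depleted cervix, which is the order of the groups for *Cfd* and *Lpl*. Of these markers 9 of 10 were higher in D21 than in NP depleted cervix, beside 5.44% of all genes. Smooth muscle markers ranged from 3.72 to 4.94 in whole and from 0.04 to 2.06 in depleted cervix, and markers of adventitial stroma and preadipocytes from 0.72 to 1.11 in whole, -0.81 to 0.01 in D21 depleted and -3.11 to -1.93 in NP depleted cervix. Mφ markers were called higher in whole cervix for 14 of 16 markers at D21 and for 12 of 14 in NP rats, beside 10% and 13.6% of all genes. Only 5 of them could be tested between the depleted groups, so that most passed the filter only through whole cervix, where they were high. These counts are therefore descriptions. The part of the loss of Mφs, fibroblasts or smooth muscle in the differences of *Cfd*, *Lpl*, *Adipoq*, *Cidec* and *Retn* between whole and depleted cervix was not tested. Endothelial markers (10 of 10) ranged from -1.16 to -0.54 in depleted and from -0.54 to 0.12 in whole cervix. At D21, 5 of 10 were called higher in whole cervix, as were 5 of 10 fibroblast markers, beside 10% of all genes. In NP rats 3 of 9 endothelial markers were called higher and 1 lower, and 10 of 10 fibroblast markers higher, beside 13.6% of all genes called higher and 10.8% lower. Epithelial markers went the other way, 6 of 10 being lower in whole than in depleted cervix in NP rats. At D21, 4 were lower and 1 higher (mean 4.18 in whole and 4.99 in depleted cervix), beside 7.72% of all genes lower and 10% higher. Housekeeping genes were between 3.91 and 4.53 in all 12 rats.

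**Figure D3:**
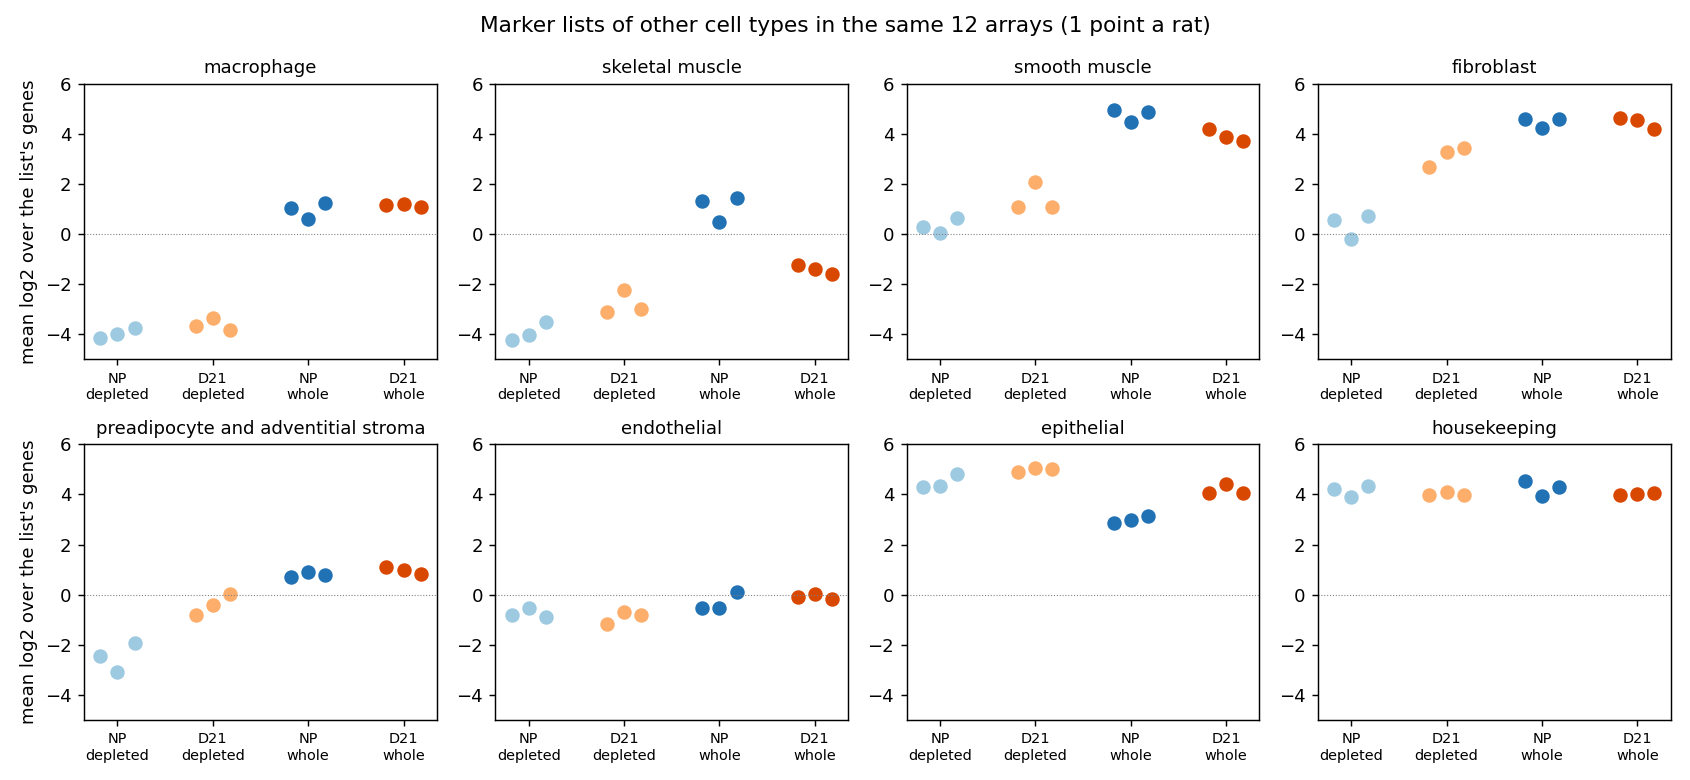
Mean log2 level on the same scale (y axis, 0 being the array's 75th percentile) of the measurable genes of 8 marker lists in each rat (1 point a rat, x axis groups). Mφ markers are near 1 in whole and near -4 in depleted cervix, skeletal muscle markers are highest in NP whole cervix, and fibroblast markers are lowest in NP depleted cervix.

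Of 114 other genes of adipocyte pathways in 8 lists, 103 had a probe. Between D21 and NP whole cervix 6 were called higher and 3 lower of 75 tested, or 8% and 4%, beside 5.39% and 3.09% of all genes. *Ffar4* and *Lgals12* passed the filter only through D21 whole cervix, where they were high, so that these counts are descriptions. Higher at D21 by most were *Ffar4*, a receptor for long-chain fatty acids, at least 28.6-fold (adjusted p = 0.0062), and *Angptl4*, a secreted inhibitor of *Lpl*, by 2.78 (SE 0.46, adjusted p = 0.00942). Next were *Lgals12*, a galectin of the droplet, at least 4.22-fold, *Pi16*, a marker of adventitial stroma, by 2.18, and *Cidea*, a relative of *Cidec*, by 1.97 (SE 0.53, adjusted p = 0.0528). Among the genes lower at D21 were *Slc2a4*, the insulin-responsive glucose transporter, by -2.45 (SE 0.48, adjusted p = 0.018), and *Rbp4*, the retinol carrier, by -1.47 (adjusted p = 0.0688). *Cidea* thus went against *Cidec* in the same rats. The lists of lipid droplet genes (11 tested), fatty acid uptake and triglyceride synthesis (13), fatty acid synthesis (9) and adipogenic transcription factors (11) had 2 genes called between them, *Cidea* and *Angptl4*. *Plin5*, *Fitm1*, *Ebf2*, *Ppara*, *Lepr*, *Acvr1c*, *Nat8l* and *Dlk1* were not well above background on any array.

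Between whole and depleted NP cervix 18 of these genes were higher and 4 lower of 68 tested, or 26.5% and 5.88%, beside 13.6% and 10.8% of all genes. *Rarres2*, which encodes the adipokine chemerin, was higher by 5.68 (SE 0.37, adjusted p = 2.2e-06), *Rbp4* at least 18.1-fold, *Fap*, a stromal protease, by 4.81, *Cd34*, a stromal and vascular marker, at least 9.29-fold, and *Dio2*, the deiodinase of brown adipocytes, at least 16.4-fold. All of these passed the filter only through whole cervix, where they were high, so that the counts are descriptions. Lower in whole cervix were *Rxra*, a partner of *Pparg*, by -2.64, *Klf5*, which is also an epithelial factor, by -2.26, *Angptl4* by -1.63 and *Fasn*, the fatty acid synthase, by -1.11. *Rxra* was well above background in only 1 NP whole cervix and passed the filter through depleted cervix alone, where it was high. At D21, 10 of 75 tested were higher in whole cervix and 7 were lower, or 13.3% and 9.33%, beside 10% and 7.72% of all genes. The higher genes included *Rarres2* (2.53), *Fap* (2.45), *Gpihbp1*, the capillary anchor of *Lpl* (2.33) and *Pi16* (2.16). The lower genes included *Ppargc1b* (-2.30), *Rxra* (-1.84) and *Fitm2* (-1.25). *Fap* passed the filter only through whole and *Ppargc1b* only through depleted cervix, where each was high.

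Between the depleted groups 14 were higher at D21 and 1 lower of 71 tested, or 19.7% and 1.41%, beside 5.44% and 2.06% of all genes. *Dio2* was at least 7.51-fold higher, *Pdgfra*, a receptor of mesenchymal progenitors, 11.7-fold (3.55, SE 0.28, adjusted p = 0.000181), *Ffar4* 11.3-fold, *Cox8b* of the brown adipocyte list 10.1-fold and *Pi16* 7.67-fold. *Lpin1*, a phosphatase of triglyceride synthesis, was at least 2.77-fold lower (adjusted p = 0.0938). *Dio2*, *Ffar4* and *Cox8b* passed the filter only through the D21 rats and *Lpin1* only through the NP rats, so that the counts are descriptions. The brown adipocyte list was called higher for 3 of 4 tested, *Dio2*, *Cox8b* and *Cidea*, and the stromal list for 4 of 6. In the interaction 1 was called higher and 9 lower of 77, or 1.3% and 11.7%, beside 2.44% and 5% of all genes. *Lgals12* (2.84, adjusted p = 0.0805) was the higher one, and *Dio2* (-3.82), *Rbp4* (-3.71), *Pdgfra* (-3.60), *Rarres2* (-3.15) and *Rxrg* (-2.96), another partner of *Pparg*, led the lower ones, the last 4 with adjusted p-values from 0.00336 to 0.0384. *Lgals12* passed the filter only through D21 whole cervix, so that its gap in NP rats was not measured. *Dio2* and *Rbp4* were not well above background in any NP depleted rat, so that the size of their gap in NP rats rests on undetected signals. The counts of the interaction are therefore descriptions.

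The members varied together among NP whole cervices. Rat 8 was the lowest of the 3 for all 8 measurable members, whereas it was lowest for 27.2% of 14487 genes, and rat 10 was the highest for 6 of 8, beside 26.1% of genes. Rat 8 was not low for skeletal muscle markers (1.32, beside 0.46 in rat 9 and 1.41 in rat 10). Nor was it the lowest for smooth muscle, fibroblast, Mφ, housekeeping, fatty acid synthesis or adipokine genes. It was the lowest for epithelial markers (2.85, beside 2.99 and 3.12), endothelial markers (-0.54, -0.53 and 0.12) and adventitial stroma (0.72, 0.92 and 0.79). It was also the lowest for lipid droplet, fatty acid uptake, adipogenic factor, insulin response and brown adipocyte genes. Its array was the dimmest of whole cervix, and the part of this in its low values was not tested. In D21 whole cervix rat 5 was lowest for 4 of the 8 and highest for 3.

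**Figure D4:**
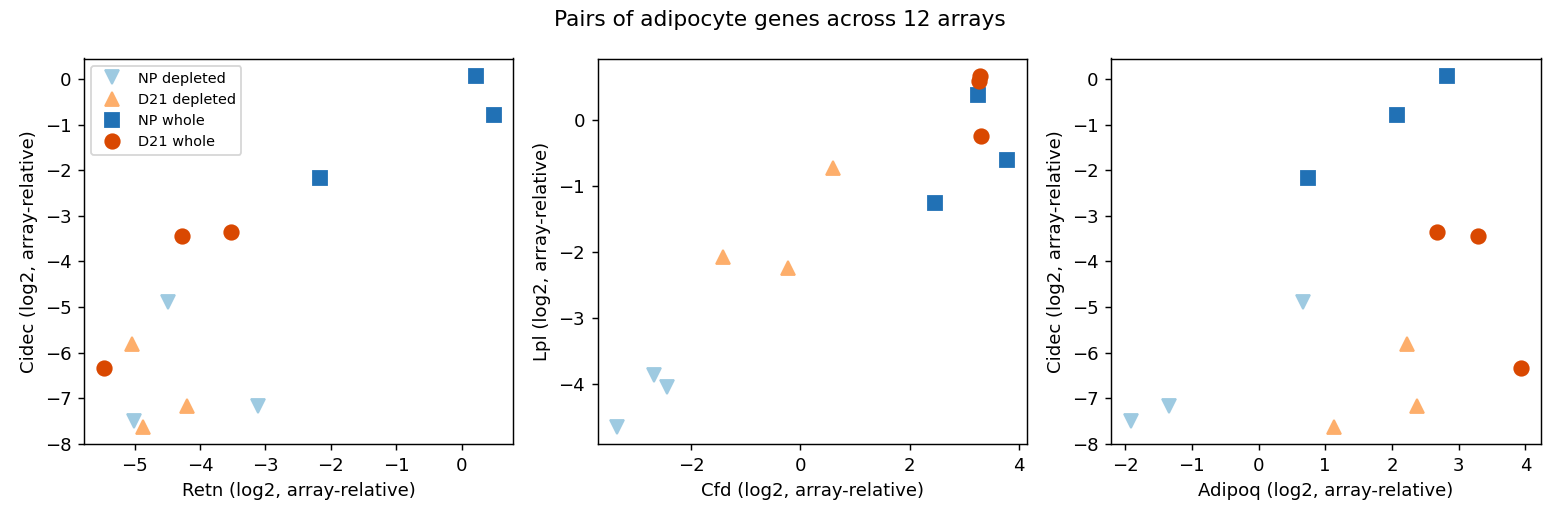
Log2 levels of pairs of members in 12 arrays (0 on either axis is the array's 75th percentile), with 1 point a rat and 1 symbol a group. NP whole cervix stands apart at the upper right for *Retn* and *Cidec*, D21 depleted cervix lies between NP depleted and whole cervix for *Cfd*, and for *Lpl* save that its highest rat (-0.72) is above NP whole rat 8 (-1.26), and D21 whole rat 5 has the highest *Adipoq* (3.93) with *Cidec* at -6.33.

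In the plot of pairs *Retn* and *Cidec* are high in NP whole cervix, and the group means of *Cfd* and *Lpl* are higher in both whole groups, lower in D21 depleted and lowest in NP depleted cervix. The other members followed neither order: the mean of *Adipoq* was highest in D21 whole cervix (3.30, beside 1.88 in NP whole and 1.91 in D21 depleted cervix), that of *Fabp4* was lowest in D21 depleted cervix (-1.19, beside 0.18 in NP depleted cervix), and those of *Lipe* lay between -2.40 and -2.15. By the mean of the 4 measurable adipocyte-restricted genes (*Adipoq*, *Retn*, *Cfd* and *Cidec*, signals under the limit included), the rats stood at -0.28, 1.26 and 1.72 in NP whole, -1.15, -0.22 and -0.29 in D21 whole, -2.90, -2.10 and -2.51 in D21 depleted and -4.21, -3.57 and -3.01 in NP depleted cervix. These genes did not move closely together. With group means taken out, Pearson r between pairs ran from -0.19 (*Cfd* and *Cidec*) to 0.49 (*Adipoq* and *Cidec*). The genes most like this mean over the 12 arrays, of 14479 measurable genes, were *Car14* (r = 0.972), *Popdc2* (0.971), *Cd302* (0.971), *Rbp4* (0.967), an unnamed transcript, *Rsu1*, *Lix1l*, *Serf1*, *Slc43a1* and *Alx1* (0.95). The points share the array and fall into 4 groups, so that these values follow the group means. With the mean of each group taken out, the named genes most like it were *Rbp4* (0.913), *Fhit* (0.89), *Mbp* (0.873), *Chst2* (0.871), *Lysmd1* (0.869) and *Atp6v1c1* (0.859), the other 4 of the 10 having only a probe or locus name. *Rbp4* alone was in both lists of 10. The gene most like *Cidec* by itself was *Car3*, a carbonic anhydrase abundant in adipocytes and skeletal muscle (r = 0.978 over 12 arrays), and those most like *Cfd* were *C1qb* (0.99) and *C1qa* (0.983), complement genes made by Mφs, then *Fhl1* (0.983) and, after an unnamed transcript, *Des* (0.974), both muscle genes. These 5 genes were named after their values were seen.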

How the data were processed

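Each of 12 arrays (Agilent, 1 colour) held RNA of cervical cells from 1 rat, and the labels give 4 groups of 3. The authors deposited each spot's intensity from Feature Extraction 9.5.3.1, background already subtracted and small signals replaced by surrogates, and not normalized across arrays. A second deposited table holds a ratio for each probe, its intensity over its array's 75th percentile from GeneSpring with 2 decimals, a scale found here by comparison with the intensities.

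Spots of a probe were averaged without outlier spots, and log2 values were centred on the array's 75th percentile. This removes a difference in brightness, but signals near background stay noisy and have no order among surrogates. RefSeq named 17328 of 30367 probes (57.1%) by accession, others kept their name in the files, and the brightest probe stood for a gene. Genes had to be well above background on all 3 arrays of a compared group. Fits used limma 3.58.1 (R 4.3.3; lmFit, eBayes) on all 12 arrays with a mean for each group, and Benjamini-Hochberg adjustment over all genes tested. A call means the study's threshold, unadjusted p under 0.01 and a change of 2-fold or more. A fold of "at least" uses, for the dim group, the dimmest probe of each array still rated well above background, or the gene's own where higher. It compares group means, carries no error, and may not hold for single rats or under another background correction. The fit was tested on simulated data.

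Of the related genes, the 5 largest changes in each direction among those called were named, except some that are not reported here, and of genes alike the 10 with the highest Pearson r. The members and lists were chosen with earlier results of these data known. No promoter window was used for *Fabp4*, *Lpl* and *Lipe*. The number of arrays limits the precision. Alternatives were normexp (offset 50), quantile normalization, a percentile taken over the probes detected throughout, other filters on dim probes, the mean of probes, blocks for slide or for scan day, the authors' values, the methods' t-test (Welch's), array weights, only the compared arrays, and leaving out each rat. A fit without both dimmest arrays was added after seeing the data.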

Additional observations from a re-analysis of the deposited data

Results flagged for a closer look

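The interaction between pregnancy and depletion passed the study's threshold for 2 members. For *Cfd* it was -2.36 on the log2 scale (SE 0.68, adjusted p = 0.0993), with gaps of 3.64 at D21 and 5.99 in NP rats. For *Retn* the fitted value was -3.45 (adjusted p = 0.112), but *Retn* was not well above background in any D21 whole cervix and entered the test through NP whole cervix alone, so that its gap at D21 was not measured and the value is no measured difference. Neither passed adjustment over the 14565 genes tested, and no explanation was tested.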

How the results depend on the processing

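Of 72 recounts of the members called under an alternative other than leaving out a single rat, 49 were within 1.5 times the value reported. In D21 against NP whole cervix (2 called), normexp, a filter on every array compared (5 members left), and the methods' t-test with or without adjustment gave 0, and the adjusted limma threshold 1. Over all 14056 genes the adjusted t-test also called 0, so that its count says nothing of the members. Normexp cut the genes called lower from 435 to 132. In whole against depleted D21 cervix (2), normexp and slide as a block gave 1, array weights 5, and the t-test 0 in both forms. Over all 14256 genes, 1431 were called higher and 1100 lower, which became 2497 and 2091 with array weights. They became 550 and 425 with normexp, 315 and 197 with slide as a block, 394 and 256 with the t-test, and 8 and 4 with its adjusted form. In NP rats (5), the filter on every array gave 1 of 2 left, the t-test 3 and, adjusted, 1. Over all genes 1823 were called higher in the main fit, 944 with that filter, 852 with the t-test and 518 with its adjusted form. Between depleted groups (3), the filter gave 1 of 3 left and the t-test 0 in both forms. Over all genes 729 were called higher in the main fit, 464 with the filter, 162 with the t-test and 0 with its adjusted form. In the interaction (2), normexp, quantile normalization, slide as a block and array weights gave 1, the filter and the adjusted threshold 0, and leaving out both dimmest arrays 4. Over all genes 728 were called lower in the main fit, 374 with normexp, 1651 with array weights, 286 with the adjusted threshold and 775 without both dimmest arrays. Leaving out each rat gave 1 to 2, 2 to 4, 4 to 7, 2 to 3 and 0 to 2 members in these 5 comparisons. D21 whole rat 5 raised the count in D21 rats to 4 when left out, while over all genes those called higher went from 1431 to 1039. The filter acts by removing dim genes, and for the rest the cause was not tested.

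No difference called in the report changed sign. The sign turned, uncalled on both sides, in 20 of 498 values. In D21 against NP whole cervix these were *Cfd* with normexp (-0.023), slide as a block (-0.50) and without both dimmest arrays (-0.23), and *Lipe* with the last 2 (-0.51 and -0.19). In whole against depleted D21 cervix, slide as a block gave -1.05 for *Adipoq*, -0.83 for *Pparg* and -0.96 for *Lipe*, and *Lipe* was -0.24 with normexp and -0.20 with quantile normalization, which also gave -0.24 for *Lipe* in NP rats. The D21 values with slide as a block say little, because the D21 groups shared no slide and were compared only through NP arrays. Between depleted groups *Pparg* was -0.053 with the other percentile and -0.39 with array weights, and *Lipe* -0.16 with the mean of its probes. In the interaction *Lipe* was 0.036 with quantile normalization, 0.11 with the other percentile, 0.35 with the mean of probes and 0.020 with the authors' values, and *Fabp4* -1.33 and -0.32 with slide and scan day as a block. Leaving out each rat turned *Cfd* (-0.23 to 0.43) and *Lipe* (-0.19 to 0.56) in D21 against NP whole cervix, *Lipe* in whole against depleted cervix of D21 (-0.23 to 0.46) and NP rats (-0.31 to 0.44), *Pparg* (-0.17 to 0.55) and *Lipe* (-0.21 to 0.48) between depleted groups, and *Fabp4* (-0.57 to 0.78) and *Lipe* (-0.41 to 0.41) in the interaction. No paired analysis was possible because the groups compared hold different rats and share fewer than 2 rat numbers.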
